A study of Mus musculus with 9 samples.

Results

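The 9 genes that encode the pore-forming subunits of AMPA and kainate receptors were followed through cortical neurogenesis. They are the AMPA subunit genes Gria1, Gria2, Gria3 and Gria4 and the kainate subunit genes Grik1, Grik2, Grik3, Grik4 and Grik5. They were taken by symbol, and all 9 were found among the 21210 genes of the deposited table. The embryos were of the C57BL/6 strain, embryonic day 14.5, and carried fluorescent reporters at Btg2 and Tubb3; RNA was taken from their lateral cortex. Meninges and ganglionic eminences had been removed, and each of the 9 strand-specific poly-A libraries was made from sorted cells pooled over more than 3 embryos of different litters. Sorting gave 3 groups of 3 libraries, namely proliferating progenitors (RFP negative, labelled Btg2 negative), differentiating progenitors (RFP positive, labelled Btg2 positive) and neurons (GFP positive, labelled Tubb3 positive). The titles give RFP for the Btg2 gate, whereas the genotype label of all groups reads Btg2GFP/Tubb3GFP. The groups therefore rest on reporter fluorescence, and each one is a gate that can hold several cell types.

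AMPA and kainate receptors are glutamate-gated cation channels built from 4 subunits each. AMPA receptors carry most fast excitatory transmission in the cortex, and the GluA2 subunit made from Gria2, once its RNA is edited, keeps calcium from passing. Kainate receptors combine the low-affinity subunits GluK1 to GluK3, which form channels alone, with the high-affinity subunits GluK4 and GluK5, which need a low-affinity partner. Auxiliary proteins such as the TARPs for AMPA receptors and the Neto proteins for kainate receptors set their trafficking and gating.

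Promoter sequences are shown for 3 subunit genes whose RNA differed in behaviour across the groups, so that a reader can set the sequences beside the values. Grik3 was low in progenitors and high in neurons, Gria2 was well detected in all groups and highest in neurons, and Grik2 was lower in neurons than in differentiating progenitors. Each run is the 250 bases before the RefSeq start on the gene's own strand, build GRCm38.p6, 5′ to 3′, and capitals mark the letters CANNTG, the E-box read by basic helix-loop-helix factors. They lie at chr4:125490446-125490695 on the plus strand for Grik3, chr3:80802836-80803085 on the minus strand for Gria2 and chr10:49788755-49789004 on the minus strand for Grik2.
Grik3: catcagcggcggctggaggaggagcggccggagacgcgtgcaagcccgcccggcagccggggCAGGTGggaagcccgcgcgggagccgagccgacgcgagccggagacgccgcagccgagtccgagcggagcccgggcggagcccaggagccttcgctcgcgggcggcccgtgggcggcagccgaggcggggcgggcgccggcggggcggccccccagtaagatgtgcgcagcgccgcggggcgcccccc
Gria2: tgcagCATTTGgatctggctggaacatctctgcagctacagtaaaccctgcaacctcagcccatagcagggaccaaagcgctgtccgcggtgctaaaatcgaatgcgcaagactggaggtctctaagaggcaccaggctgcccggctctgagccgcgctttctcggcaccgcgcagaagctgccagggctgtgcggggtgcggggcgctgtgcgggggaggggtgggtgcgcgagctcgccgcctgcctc
Grik2: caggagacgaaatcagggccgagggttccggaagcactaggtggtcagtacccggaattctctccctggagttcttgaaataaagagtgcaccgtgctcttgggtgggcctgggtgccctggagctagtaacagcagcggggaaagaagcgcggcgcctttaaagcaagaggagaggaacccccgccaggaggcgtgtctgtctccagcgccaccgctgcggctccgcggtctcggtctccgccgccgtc

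The 3 windows differ in base composition. The Grik3 window is 82.0% G or C with 42 CpG dinucleotides and holds 6 copies of GGGCGG, the GC box. The Gria2 window is 64.8% G or C with 19 CpG, and the Grik2 window is 62.8% with 20 CpG. The windows of Grik5, Grik4 and Gria4, not shown, are 75.2%, 69.6% and 58.8% G or C with 8, 36 and 16 CpG. A link between composition and RNA level was not tested. Over 32851 RefSeq promoter windows of the same length the medians were 52.4% G or C and 6 CpG. CANNTG, which reads the same on both strands in its fixed letters, occurs once in the Grik3 window, 188 bases before the start, and once in the Gria2 window, 245 bases before it. The Grik2 window holds none, and 66.2% of all windows hold at least 1. GGGCGG, searched on both strands, is in 32.7% of all windows. The more specific letters CAGATG and CAGCTG, both of them forms of CANNTG, and TATAAA were in none of the 6 subunit promoters in the RefSeq table. These are matches of letters only, and binding of a factor was not measured.

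The values below are normalised read counts per library, as the authors deposited them. Their library totals differed by group, at 17531558 to 19077173 in the progenitor libraries and 21442620 to 22076409 in the neuron libraries. The reads behind them were estimated at 12653597 to 27630049. Each change is a log2 difference of group means with its standard error (SE) on the log2(value + 1) scale. Adjusted p-values come from limma over the 15828 genes tested, with 0.05 as the threshold. All 9 subunit genes had a value of at least 10 in all 9 libraries and entered the test. Radial glia markers summed to 104199 to 122277 in proliferating progenitors, 46275 to 69360 in differentiating progenitors and 5732 to 7096 in neurons. The neuron libraries also held markers of interneurons (summed 8643 to 10218) and of Cajal-Retzius cells (17372 to 20331), beside projection neuron markers (191812 to 237826). Interneuron markers were also present in progenitors, summed to 481 to 3157 in differentiating and 90 to 1069 in proliferating progenitors. Cajal-Retzius markers summed to 867 to 1188 and 79 to 118 in the same order. Summed markers of non-neural cells were highest in proliferating progenitors. There the 5 red blood cell markers summed to 16596 to 48364, against 53 to 484 in differentiating progenitors and 37 to 170 in neurons. Endothelial and mural markers summed to 527 to 1061, 307 to 314 and 58 to 87 in the same order, and microglia markers to 132 to 171, 70 to 97 and 26 to 35. In bulk libraries, fewer cells of a type and less RNA per cell cannot be told apart.

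**Figure D1:**
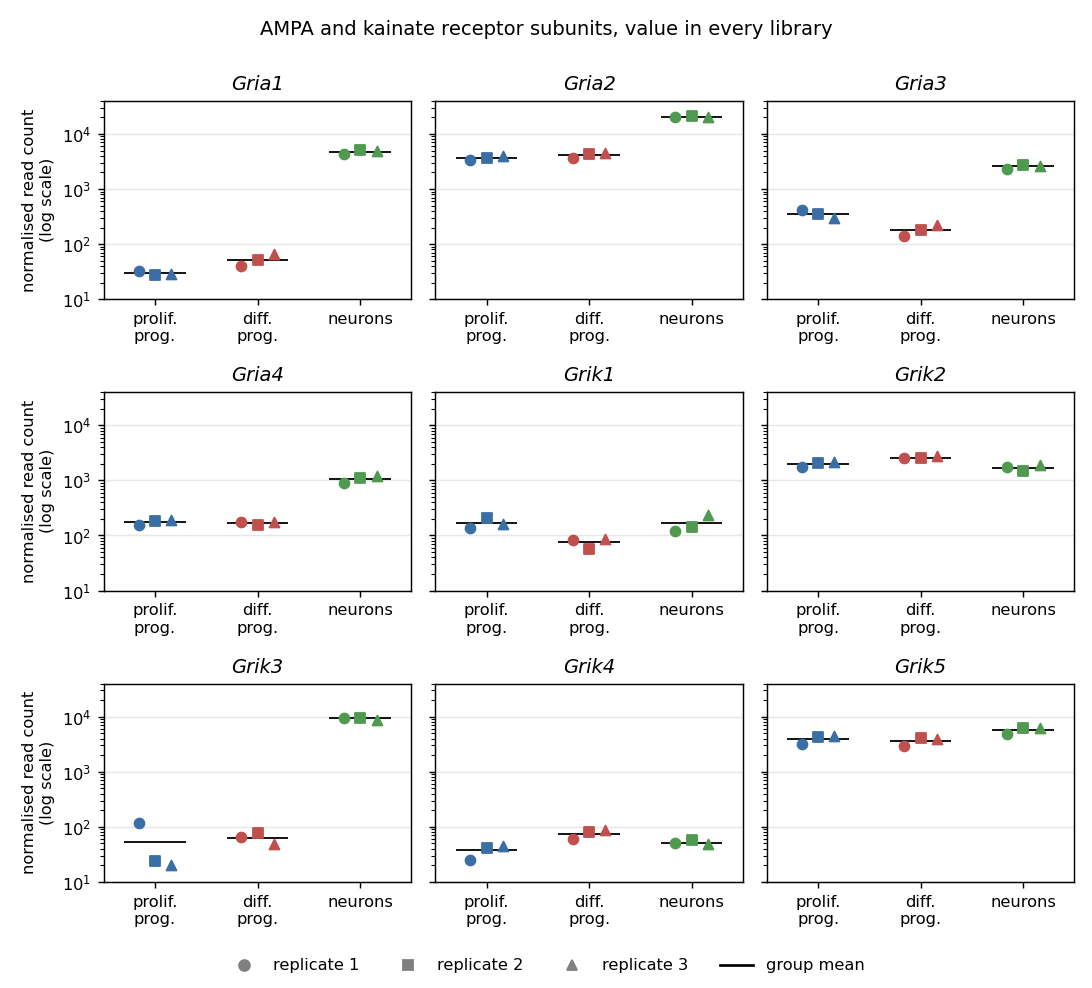
Normalised read count (log axis) of the 9 subunit genes in each library, with circles, squares and triangles for replicates 1, 2 and 3 and a line at the group mean. Gria1 and Grik3 lie at or below 115 in every progenitor library and at 4406 or above in every neuron library, whereas Grik2 is lower in neurons (1485 to 1902) than in differentiating progenitors (2519 to 2739).

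Neurons had more RNA of all 4 AMPA subunit genes than either progenitor population, and the genes differed in how much they had before. Gria1 encodes GluA1, a subunit tied to activity-dependent delivery of receptors to synapses. Its values in replicates 1, 2 and 3 were 33, 28 and 29 in proliferating progenitors, 40, 51 and 66 in differentiating progenitors, against 4406, 5022 and 4828 in neurons. The groups did not overlap, and the neuron mean was 90.8 times that of differentiating progenitors and 158 times that of proliferating progenitors. On the log2 scale neurons exceeded differentiating progenitors by 6.50 ± 0.18 (SE, n = 3 libraries a group; limma adjusted p = 4.7e-08), which placed Gria1 at rank 24 from the highest change among the 15828 genes. The smaller rise from proliferating to differentiating progenitors was 0.76 ± 0.18 (limma adjusted p = 0.0159). That call rests on about 24 to 67 reads a library. It was lost when only the 6 progenitor libraries were fitted (adjusted p = 0.0802) and without proliferating progenitor replicate 2 (adjusted p = 0.0548).

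Gria2 encodes the calcium-blocking subunit and was the most abundant AMPA subunit RNA per kilobase in every group. Its values were 3374, 3593 and 4015 in proliferating progenitors, 3653, 4327 and 4534 in differentiating progenitors, against 20362, 20923 and 20018 in neurons. The progenitor groups overlapped and the neurons lay far above both. Neurons exceeded differentiating progenitors by 2.30 ± 0.10 and proliferating progenitors by 2.48 ± 0.10 on the log2 scale (limma adjusted p = 1.94e-07 and 6.82e-08). Between the progenitor populations the difference was 0.19 ± 0.10 (limma adjusted p = 0.232), and with the replicate block it passed the threshold (adjusted p = 0.0403).

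Gria3, which encodes GluA3, was the AMPA subunit gene that fell before it rose. Proliferating progenitors had 409, 347 and 294, differentiating progenitors 138, 179 and 219, and neurons 2311, 2783 and 2640. All 3 groups were separate, with differentiating progenitors lowest. The change from proliferating to differentiating progenitors was -0.98 ± 0.18 on the log2 scale (limma adjusted p = 0.00459), and it passed the threshold in all 19 alternatives run. Radial glia, red blood cell, endothelial and microglia marker sums were also lower in every differentiating than in every proliferating progenitor library. Single markers could differ, as Kdr had 62, 76 and 187 in proliferating and 120, 123 and 157 in differentiating progenitors. The part of these markers in the falls of Gria3 and Grik1 was not tested. The next step up to neurons was 3.86 ± 0.18 (limma adjusted p = 2.85e-07), or 14.4 times in group means, and neurons were 2.89 ± 0.18 above proliferating progenitors (adjusted p = 9.2e-07).

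Gria4 encodes GluA4, a subunit known from immature neurons and from interneurons. Its values were 158, 183 and 188 in proliferating progenitors, 178, 158 and 176 in differentiating progenitors, against 883, 1084 and 1204 in neurons. The progenitor populations covered the same range, with a log2 difference of -0.04 ± 0.14 (limma adjusted p = 0.885), and neurons were clear of both. Neurons exceeded differentiating progenitors by 2.61 ± 0.14 (limma adjusted p = 5.68e-07), a ratio of group means of 6.19.

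The low-affinity kainate subunit genes went 3 ways. Grik3 encodes GluK3 and showed the highest rise of the 9 genes. Its values were 115, 24 and 20 in proliferating progenitors, 64, 76 and 49 in differentiating progenitors, against 9521, 9655 and 8694 in neurons. Replicate 1 of the proliferating progenitors stood above the other progenitor libraries, and the progenitor groups overlapped because of it. Neurons exceeded differentiating progenitors by 7.20 ± 0.55 (limma adjusted p = 4.39e-06), or 147 times in group means, which was rank 6 among the 15828 genes. Against proliferating progenitors the difference was 7.88 ± 0.55 (adjusted p = 1.59e-06), and 8.66 without proliferating progenitor replicate 1.

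That library also decided the progenitor comparison of Grik3. With it, differentiating minus proliferating progenitors was 0.68 ± 0.55 (limma adjusted p = 0.441). Without it the difference was 1.46 (adjusted p = 0.00097). The 9 interneuron markers summed to 1069 in that library and to 260 and 90 in the other proliferating progenitor libraries, and projection neuron markers to 13252 against 9743 and 7674. Gria1, the other gene that was low in progenitors and high in neurons, had 33 there against 28 and 29. Whether the neuronal markers in that library bear on its Grik3 value was not tested.

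Grik2 encodes GluK2, the low-affinity subunit found in many forebrain kainate receptors, and was the 1 subunit gene called lower in neurons than in differentiating progenitors. Proliferating progenitors had 1714, 2070 and 2158, differentiating progenitors 2519, 2536 and 2739, and neurons 1754, 1485 and 1902. Differentiating progenitors were above both other groups in every library, while neurons and proliferating progenitors overlapped. Neurons were below differentiating progenitors by -0.61 ± 0.12 on the log2 scale (limma adjusted p = 0.00201), and this passed in all 19 alternatives. The rise from proliferating to differentiating progenitors, 0.40 ± 0.12 (limma adjusted p = 0.0389), passed in 10 of 19 alternatives. It was lost without proliferating progenitor replicate 1 (adjusted p = 0.105) or 2 (0.0726) and without differentiating progenitor replicate 1 (0.056), 2 (0.0899) or 3 (0.125). Neurons against proliferating progenitors gave -0.21 ± 0.12 (adjusted p = 0.156). That difference passed with the replicate block (adjusted p = 0.0426), without proliferating progenitor replicate 1 (-0.31, adjusted p = 0.043) and under total-sum scaling (-0.50, adjusted p = 0.0055).

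Grik1 encodes GluK1, a subunit known from interneurons. Its values were 137, 207 and 161 in proliferating progenitors, 82, 57 and 86 in differentiating progenitors, against 122, 142 and 238 in neurons. Differentiating progenitors were lowest in every library, and the other two groups overlapped. The fall from proliferating progenitors was -1.16 ± 0.29 (limma adjusted p = 0.0173) and the following rise to neurons 1.11 ± 0.29 (adjusted p = 0.009). The fall lost its call without replicate 2 of the proliferating progenitors (adjusted p = 0.0689) or of the differentiating progenitors (adjusted p = 0.0691). Neurons and proliferating progenitors differed by -0.05 ± 0.29 (adjusted p = 0.901), with either sign among the alternatives.

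Of the high-affinity subunit genes, Grik5 encodes GluK5, and its values were 3151, 4239 and 4430 in proliferating progenitors, 2898, 4075 and 3938 in differentiating progenitors, against 4765, 6348 and 6104 in neurons. Replicate 1 was the lowest in each group, and every neuron library lay above every progenitor library. Neurons exceeded differentiating progenitors by 0.66 ± 0.18 (limma adjusted p = 0.0121) and proliferating progenitors by 0.55 ± 0.18 (adjusted p = 0.025). Both differences kept their sign in all 19 alternatives, and both calls held with the replicate block. Limma adjusted p over the alternatives ranged from 7.35e-07 to 0.0516 for the first and from 2.15e-06 to 0.309 for the second. Both calls depended on the scaling. When each library was scaled to the same total the differences were 0.45 (adjusted p = 0.0503) and 0.26 (adjusted p = 0.213), and with quantile normalisation 0.43 (adjusted p = 0.0516) and 0.21 (adjusted p = 0.309). The second was also lost without proliferating progenitor replicate 1 (adjusted p = 0.0797), neuron replicate 2 (0.088) or neuron replicate 3 (0.0795).

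Grik4 encodes GluK4 and was scarce throughout. Proliferating progenitors had 25, 42 and 45, differentiating progenitors 59, 80 and 86, and neurons 50, 57 and 48. Differentiating progenitors had the highest values, with no overlap with either other group. Its rise over proliferating progenitors was 1.01 ± 0.27 (limma adjusted p = 0.0224) and rests on about 18 to 99 reads a library. The call was lost with quantile normalisation (adjusted p = 0.0728) and without proliferating progenitor replicate 1 (0.0515) or differentiating progenitor replicate 2 (0.0801) or 3 (0.0857). Neurons minus differentiating progenitors was -0.51 ± 0.27 (adjusted p = 0.135; 0.0442 with the replicate block), and neurons minus proliferating progenitors 0.50 ± 0.27 (adjusted p = 0.132; 0.046 with the block).

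**Figure D2:**
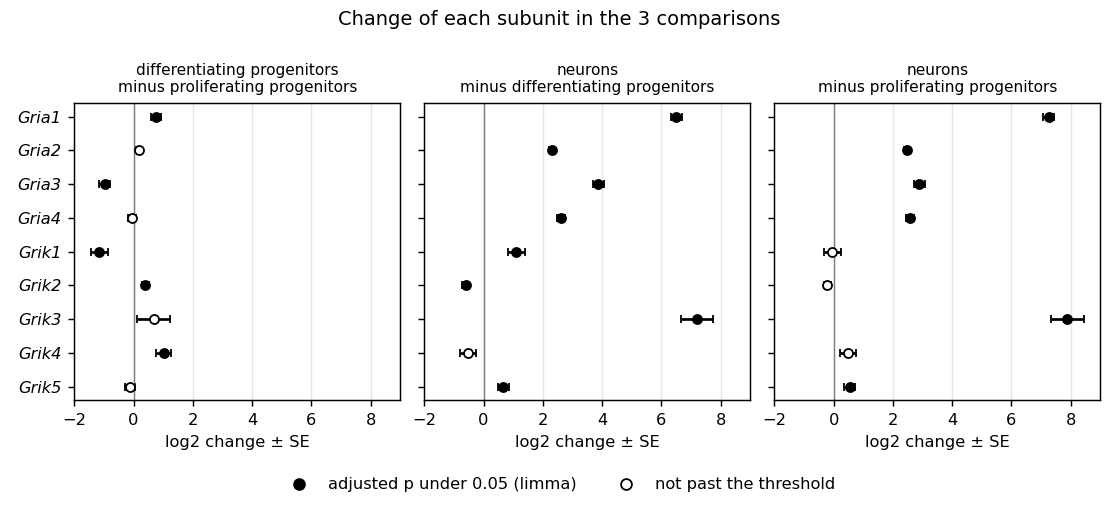
Log2 change of each subunit gene with its standard error in the 3 comparisons, filled where the limma adjusted p was under 0.05. Neurons minus differentiating progenitors ranges from -0.61 for Grik2 to 7.20 for Grik3, while differentiating minus proliferating progenitors stays between -1.16 and 1.01.

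Counted over the 9 genes, neurons against differentiating progenitors gave 7 higher (all 4 AMPA genes with Grik1, Grik3 and Grik5), 1 lower (Grik2) and 1 not called (Grik4). Of all genes tested, 54% were called in that comparison, 27.6% higher and 26.4% lower. The median log2 change was 2.30 over the subunit genes and -0.01 over all genes. Differentiating against proliferating progenitors gave 3 higher (Gria1, Grik2 and Grik4), 2 lower (Gria3 and Grik1) and 4 not called, against 24.9% of all genes called (13.8% higher, 11.1% lower). The medians were 0.19 and -0.02. Neurons against proliferating progenitors gave 6 higher, with 63.3% of all genes called (32.2% higher, 31.1% lower), and the medians were 2.48 and -0.02. In that comparison limma called 0 of the 9 lower, and 0 were lower at an unadjusted p under 0.05. Each pair of comparisons shares a group of libraries. Under total-sum scaling the median of all genes moved to -0.23 for neurons minus differentiating progenitors and -0.31 for neurons minus proliferating progenitors. The calls then split into 3353 higher and 5589 lower, and 3869 higher and 6605 lower, in place of 4368 and 4183, and 5099 and 4924.

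The folds in the authors' deposited table are ratios of means over the same libraries, so their direction is not an independent check. For the strongest changes the table gives folds of the same direction. It lists Grik3 at 147.54 and Gria1 at 90.61 for neurons over differentiating progenitors, and Gria3 at 0.51 (adjusted p = 9.1e-05) for differentiating over proliferating progenitors. It differs for Grik2, whose 1.31 for differentiating over proliferating progenitors has an adjusted p of 0.23 in the authors' deposited table.

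Levels of different genes were compared per kilobase of the gene length in the table. In neurons the order was Gria2 (2938 ± 65.7, SD, n = 3), Grik5 (1496 ± 222), Grik3 (1035 ± 58.0), Gria1 (790 ± 52.4), Gria3 (261 ± 24.5), Grik2 (207 ± 25.6), Gria4 (169 ± 25.9), Grik1 (50.2 ± 18.6) and Grik4 (8.74 ± 0.799) normalised counts per kb. Of the neighbours in that order, Grik2 and Gria4 overlapped and the others did not. In both progenitor groups Grik5 came first, at 1027 ± 180 per kb in proliferating and 948 ± 167.8 in differentiating progenitors. Gria2 followed with 526 ± 46.8 and 600 ± 66.2 per kb and Grik2 with 239 ± 28.4 and 314 ± 14.8, and these 3 were separate in each group. The other 6 genes stood at 50.5 per kb or less in progenitors, and each overlapped its neighbour in the order, except Gria4 and Grik4 in proliferating progenitors. Grik3 passed from 5.90 ± 5.98 and 7.02 ± 1.51 per kb in the progenitor groups to the third place in neurons.

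Gria1 held a larger share of the AMPA subunit RNA in neurons than in progenitors. The shares below are descriptions with no test. Gria2 made up 88.4% ± 1.45 (SD, n = 3) of the summed per-kb level of the 4 AMPA genes in proliferating progenitors, 91.7% ± 0.505 in differentiating progenitors and 70.7% ± 1.63 in neurons. The share of Gria1 was 0.844% ± 0.124, 1.32% ± 0.197 and 19.0% ± 0.724 in the same order. Gria3 held 6.03% ± 1.40, 2.75% ± 0.342 and 6.28% ± 0.412. Gria4 held between 4.05% and 4.73% of the sum as group means, with overlapping groups. Neuron and progenitor libraries did not overlap in the Gria1 or Gria2 share.

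Grik3 held a larger share of the kainate subunit RNA in neurons than in progenitors. Its share of the summed per-kb level of the 5 genes was 0.506% ± 0.583 (SD, n = 3) in proliferating progenitors, 0.546% ± 0.138 in differentiating progenitors and 37.2% ± 3.91 in neurons. Grik5 went from 77.1% ± 1.41 and 72.4% ± 3.50 to 53.3% ± 4.13. Grik2 held 18.1% ± 0.841, 24.3% ± 3.00 and 7.45% ± 1.21. The low-affinity genes together made up 22.4% ± 1.48, 26.6% ± 3.54 and 46.4% ± 4.11. Summed per kb, AMPA genes reached 4158 ± 132 in neurons against 654 ± 71.6 in differentiating progenitors, a ratio of 6.36, and kainate genes 2797 ± 211 against 1304 ± 176, a ratio of 2.14. The AMPA genes made up 33.4% ± 0.971 of the joint sum in differentiating progenitors and 59.8% ± 1.19 in neurons, with no overlap between the libraries.

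**Figure D3:**
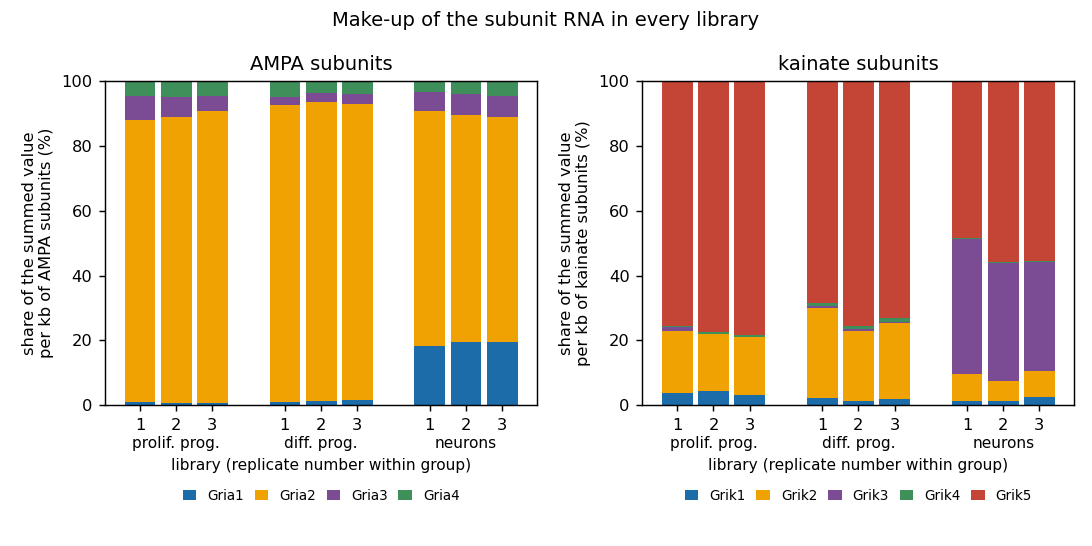
Share of each subunit gene in the summed normalised count per kb of its family, 1 bar per library. Gria1 holds 18.2% to 19.4% of the AMPA sum in neurons and at most 1.54% in any progenitor library, and Grik3 holds 33.7% to 41.4% of the kainate sum in neurons and at most 1.18% elsewhere.

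The mean of differentiating progenitors as a percent of that of neurons also set the subunit genes apart from each other. It was 0.678% for Grik3, 1.10% for Gria1, 6.93% for Gria3, 16.1% for Gria4 and 20.4% for Gria2. For Grik1, Grik5, Grik4 and Grik2 it was 44.8%, 63.4%, 145% and 152%. The 7 projection neuron markers lay between 12.6% and 33.1%, so Gria2 and Gria4 fell within their range and Grik3, Gria1 and Gria3 below it. Grik1, Grik5, Grik4 and Grik2 lay above that range. The 5 Cajal-Retzius markers ranged from 3.10% to 28.9% and the 9 interneuron markers from 0.244% to 57.9%. Which neuron types hold the subunit RNA was not tested.

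Genes known to work with these receptors were counted from a list of 35, of which 34 were found and tested. Neurons exceeded differentiating progenitors in 28 and were lower in 2 (Cacng5 and Nptx2), with a median log2 change of 1.59, against 27.6% and 26.4% of all genes. Neurons exceeded proliferating progenitors in 29 and were lower in 1 (Cacng5), against 32.2% and 31.1% of all genes. Under total-sum scaling 24 were higher. Cacng2 and Cacng3, higher in both comparisons with neurons, met the filter only through the neuron libraries, which favoured those calls. Differentiating progenitors exceeded proliferating progenitors in 11 and were lower in 3 (Grid1, Shisa9 and Epb41l1), against 13.8% and 11.1% of all genes. These last counts moved with the fit. They were 16 and 5 with the replicate block, under which 7282 of the 15828 genes were called, and 9 and 1 without proliferating progenitor replicate 2. The lower count was 2 without proliferating progenitor replicate 1 or 3, differentiating progenitor replicate 2 or 3 or neuron replicate 2, and 4 without differentiating progenitor replicate 1. Epb41l1 kept its call in all 19 alternatives. Shisa9 lost its call without proliferating progenitor replicate 2 (adjusted p = 0.052) and with quantile normalisation (0.0716), and Grid1 in 7 (adjusted p up to 0.112). Of the higher calls, that of Cacng2 (limma adjusted p = 0.0465) was lost without any 1 neuron library (0.0581 to 0.0724) and in further alternatives. Grip1 (0.0233) lost its call without proliferating progenitor replicate 1 (0.062) or 2 (0.067). The same held without differentiating progenitor replicate 2 (0.0878) or 3 (0.0725).

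The 6 TARPs bind AMPA receptors and alter their trafficking and gating. In neurons 5 were higher and 1 lower than in differentiating progenitors, a comparison that called 54% of all genes. Cacng2 and Cacng3, counted among the higher, met the filter only through their neuron libraries, which favoured those calls. Cacng2, which encodes stargazin, had 7, 1 and 1 in proliferating progenitors, 20, 5 and 13 in differentiating progenitors, against 666, 544 and 639 in neurons. It was low in both progenitor groups and did not overlap with neurons, and the last step was 5.67 ± 0.61 (limma adjusted p = 4.18e-05). Cacng3 was listed at 0 in all 3 differentiating progenitor libraries and at 60, 76 and 68 in neurons. Cacng5 went the other way, from 135, 248 and 164 in differentiating progenitors to 30, 23 and 25 in neurons (-2.72 ± 0.28, adjusted p = 3.2e-05). Per kb, Cacng7 (1271 ± 77.8, SD, n = 3) and Cacng4 (1040 ± 90.6) were the highest TARPs in neurons.

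Among 10 other AMPA auxiliary or assembly genes, 9 were higher in neurons than in differentiating progenitors, against 27.6% of all genes. Of these 9, Cpt1c (0.51 ± 0.19, limma adjusted p = 0.0456) lost its call in 10 of 19 alternatives. Cnih2, a cornichon that aids receptor export, rose by 2.72 ± 0.11 (limma adjusted p = 1.35e-07) and reached 2122 ± 79.4 per kb, the highest of these genes. Differentiating against proliferating progenitors gave 5 higher, 1 lower (Shisa9) and 4 not called of these 10 genes. Of all genes, 13.8% were called higher and 11.1% lower in that comparison. The largest rises were those of Shisa6, Gsg1l and Frrs1l, by 2.97 ± 0.28, 3.09 ± 0.27 and 3.15 ± 0.28 (limma adjusted p = 0.000121, 9.05e-05 and 9.46e-05). Frrs1l, needed for receptor assembly, had 120 to 295 in proliferating progenitors, 1496, 1786 and 1568 in differentiating progenitors, against 2038, 1483 and 1581 in neurons. Its differentiating progenitor values all lay within its neuronal range, and the change from there to neurons was 0.06 ± 0.28 (limma adjusted p = 0.876). Gria1 stood at 40 to 66 in differentiating progenitors.

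Both kainate auxiliary genes were higher in neurons than in differentiating progenitors, where 27.6% of all genes were called higher. Neto1 went from 10, 13 and 5 to 155, 252 and 248 (4.46 ± 0.41, limma adjusted p = 1.66e-05). Neto2 was present in progenitors, with 1126, 858 and 908, and reached 3834, 3750 and 3521 in neurons (1.95 ± 0.13, adjusted p = 2.36e-06). Neto2 was the more abundant per kb in neurons, at 726 ± 31.8 against 61.8 ± 15.5 (SD, n = 3).

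Of 12 binding and trafficking partners, 8 were higher and 1 lower in neurons than in differentiating progenitors. Of all genes, 27.6% were called higher and 26.4% lower in that comparison. With the replicate block 10 were higher and 2 lower, as Pick1 (0.15, limma adjusted p = 0.0281) and Gripap1 (0.45, 5.34e-05) passed as higher and Dlg1 (-0.14, 0.0201) as lower. The block called more genes in general, with 5661 higher and 5620 lower of all 15828. Grip2, a scaffold that binds GluA2 and GluA3, had 13, 20 and 18 in differentiating progenitors, against 629, 902 and 754 in neurons (5.41 ± 0.24, limma adjusted p = 2.07e-07). The neuronal pentraxin gene Nptx2, whose protein clusters AMPA receptors at synapses, had 32, 25 and 27 in proliferating progenitors, 190, 156 and 153 in differentiating progenitors, against 44, 46 and 44 in neurons. It peaked in differentiating progenitors, with a change of -1.87 ± 0.18 from there to neurons (adjusted p = 2.24e-05). Its relative Nptx1 kept rising, with 61 to 83, 310 to 371 and 1772 to 2829 in the 3 groups.

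The 3 ADAR family genes on the list (Adar, Adarb1 and Adarb2) were all higher in neurons than in differentiating progenitors. In that comparison 27.6% of all genes were called higher. Whether each of the 3 edits RNA in these cells was not tested. Adarb1, which encodes ADAR2, the enzyme that edits the calcium-controlling site of Gria2 RNA, had 536, 517 and 438 in differentiating progenitors, against 1357, 1241 and 1140 in neurons (1.33 ± 0.11, limma adjusted p = 7.41e-06). Its proliferating progenitor values were 416, 442 and 441, which overlapped the differentiating progenitors. Editing itself cannot be read from gene-level values. Grid1, a delta receptor gene of the same superfamily, was higher in neurons than in differentiating progenitors (1.01 ± 0.17, adjusted p = 0.000738). Against proliferating progenitors it was 0.42 ± 0.17 higher (adjusted p = 0.0537; 0.0276 with the replicate block).

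**Figure D4:**
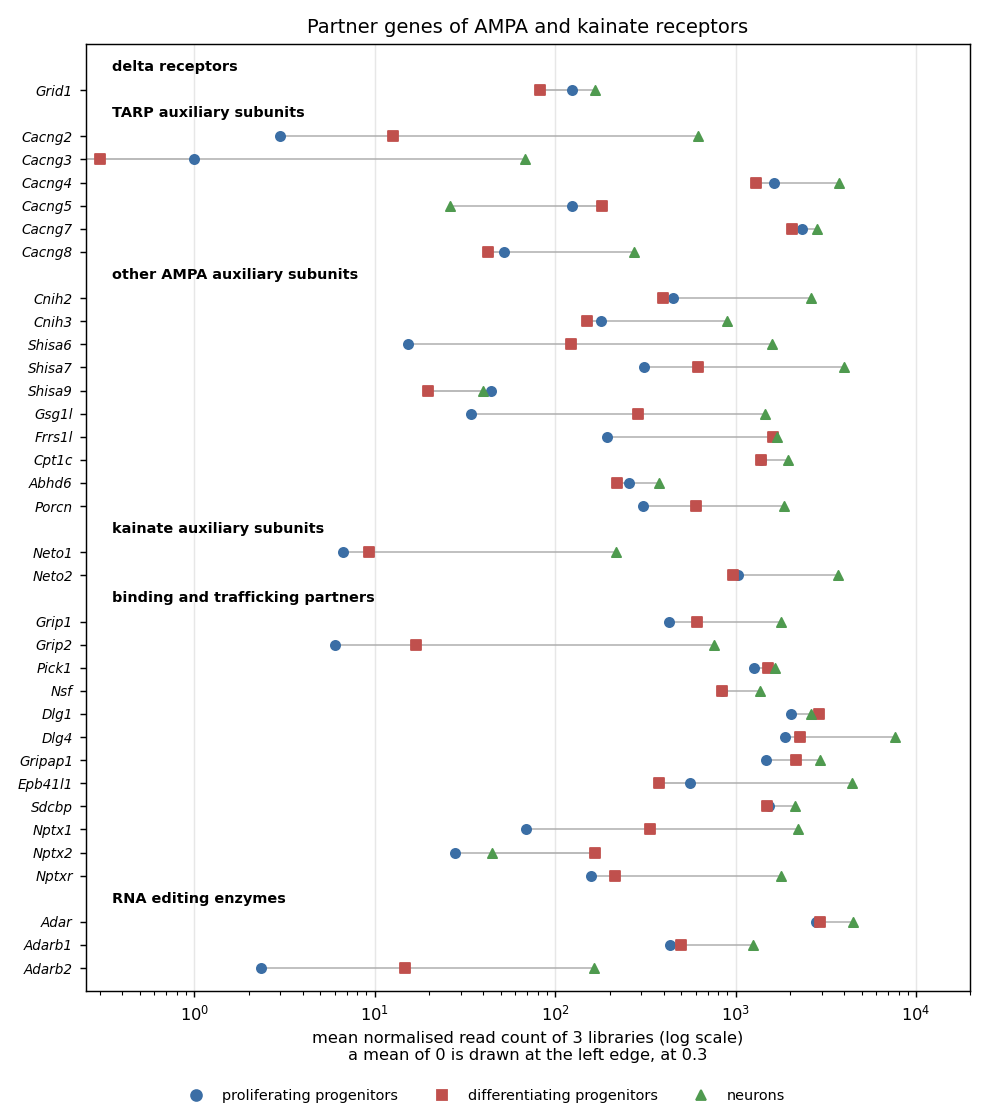
Mean normalised read count (log axis) of 34 partner genes in the 3 groups, with circles for proliferating progenitors, squares for differentiating progenitors and triangles for neurons. Triangles lie to the right in most rows, and Cacng5 and Nptx2 are the genes called lower in neurons than in differentiating progenitors.

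For each subunit gene, the genes with the most similar pattern over the 9 libraries were found by Pearson correlation of log2(value + 1), given here without a test because the libraries share groups. Gria1 was most like Plk2 (r = 0.999), Gria2 most like Slc4a8 (r = 0.999) and Gria3 most like the NMDA receptor subunit gene Grin2b (r = 0.998). Gria4 was most like Casp9 (r = 0.997), and Grik3 most like the dopamine receptor gene Drd1a (r = 0.998). Grik2 was most like Lef1 (r = 0.969), a nuclear effector of Wnt signalling, and Grik1 most like Azin1 (r = 0.945). Grik4 and Grik5 were most like Gon4l (r = 0.994) and Dcaf6 (r = 0.996).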

How the data were processed

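The submitters' processing notes name CASAVA 1.8.0 and BWA, then bedtools 2.11, and DESeq 1.8.1, with mm9 as the build. Not given in the sources used here are each tool's role and whether counting used strand. The deposited table holds 1 score per gene and library, a normalised read count in whole numbers. Per the file headers its gene models are Ensembl version 61. For each comparison the authors also deposited a fold (a ratio of means) and an adjusted p-value, beside each gene's length as another value.

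Reads per library were estimated from the small whole numbers that occur in each column. Since the estimates were inexact, count models were not used. The test was limma 3.58.1 (R 4.3.3) on log2(value + 1), with its trend option. A gene entered if 3 or more libraries had a value of 10 or more. The 9 libraries were fitted together as 3 groups, which left 6 residual degrees of freedom. Benjamini-Hochberg adjustment covered all 15828 genes. The fit was also run on simulated libraries, drawn independently with the same dispersion for all genes. That run lacked the shared deviations of replicates described below, so it gives no error rate for these data. Other steps used pandas 2.3.3, numpy 2.4.6 and matplotlib 3.10.9 in Python 3.11.15.

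Libraries with the same replicate number deviated together. All 9 such pairs had a correlation of 0.507 to 0.767 in their deviations from the group means, and the 18 other pairs -0.640 to 0.428. A fit with the replicate number as a block (4 residual degrees of freedom) was therefore also run. It is given where it changes a subunit call or moves a count by over 1.5 times, and for Grik5 and some partner genes. Alternatives covered the pseudocount, the filter, the scaling, the trend, the libraries fitted and each library left out.

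All 9 subunit genes are named. Partner genes came from a list by role and all of them are counted. Those named passed a comparison or led their group by level, and were picked as examples after their values were seen. A further gene of that list is not reported here. Of the 2 genes most like each subunit gene, the first is named. The members and lists were chosen with earlier results of these data known. Frrs1l and Epb41l1 were matched by Ensembl identifier to older symbols. Promoters are from RefSeq, build GRCm38.p6, and 6 of 9 subunit genes matched. The submitters describe the libraries as biological replicates. In GENCODE M21 no opposite-strand gene overlapped a subunit gene. On the same strand, small genes not in the table share exonic bases with Gria2 (111), Gria3 (85), Gria4 (19) and Grik4 (59), and the pseudogene Ftl2-ps, which is in the table, lies in an intron of Grik3.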

Additional observations from a re-analysis of the deposited data

How the results depend on the processing

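Over 513 changes of single subunit genes under other settings, 469 kept their direction and their side of the threshold, 24 lost a call, 12 gained one and 8 turned sign. The rises of the 4 AMPA genes and Grik3 in neurons, the fall of Gria3 in differentiating progenitors and the fall of Grik2 in neurons against differentiating progenitors kept their call in all 19 alternatives. With the replicate block, 7282 genes in place of 3944 were called between the progenitor populations, and the block changed no subunit call other than those given with Gria2, Grik2 and Grik4. Quantile normalisation left 1 subunit gene higher in differentiating than in proliferating progenitors. Leaving out 1 library gave 1 to 3 higher and 1 to 2 lower there. In neurons against differentiating progenitors, 2 subunit genes were lower under total-sum scaling, the replicate block and replicates 2 and 3 only. In neurons against proliferating progenitors, 1 (Grik2) was lower under total-sum scaling, quantile normalisation, the replicate block and replicates 2 and 3 only, and leaving out 1 library gave 0 to 1. The sign turned only in differences that were not called. With 1 library left out, Gria4 between the progenitor populations ranged from -0.12 to 0.0095, Grik5 from -0.27 to 0.040, and Grik1 in neurons minus proliferating progenitors from -0.33 to 0.15. Grik1 in the last comparison was 0.10 with quantile normalisation and 0.010 with replicates 2 and 3 only. The causes were not tested. Depth limits Gria1, Grik3 and Grik4 in progenitors, where a library held about 18 to 99 reads of each. Replicate 1 had 1.47% to 2.09% of its counts on processed pseudogenes in each group against 0.389% to 0.563% in the others.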
